A study of Mus musculus with 4 samples.

Results

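The genes described here are 53 mouse genes of mitosis and of the G2/M transition, taken as a fixed list of names and read in tumour dendritic cells (DCs) and tumour CD3+ T cells. All 53 were found among the 21959 genes listed in the tables, and all 53 had 20 or more counts in at least 1 of 4 libraries. In DCs 47 of the 53 reached 20 counts in at least 1 library, and in T cells 53 of 53 did. The rule uses the names and that count minimum. Ncapg, with 36 counts in its highest library, lay closest to that minimum, and no gene of the list fell below it.

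A cell that leaves G2 activates the kinase CDK1 through cyclins A and B, condenses its chromosomes, builds a bipolar spindle and holds anaphase back until each kinetochore is attached. The anaphase-promoting complex (APC/C), a ubiquitin ligase, then marks cyclin B and securin for destruction, which frees separase to split sister chromatids and lets the midzone and the contractile ring divide the cell. Transcripts of these proteins accumulate in late S phase and G2, and in tumour immune infiltrates they are read as a sign of dividing cells, most often of activated T cells. Differentiated DCs divide little, while their precursors divide.

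RNA came from MC38 tumours, a mouse colon carcinoma model grown in mice. The 4 groups were DCs from mice given PBS, DCs from mice given X-Ray+O-IMDQ (named in the series as a prodrug that radiotherapy activates), CD3+ T cells from PBS mice and CD3+ T cells from X-Ray+O-IMDQ mice. Cells were taken 72 h after the second treatment, and every mouse carried a tumour. Strain, sex, age, the number of animals per library and the sorting gates are not known from the sources used. The treated groups received X-rays and the prodrug together, so their effects cannot be told apart. With 1 library per group among those used, nothing here measures the spread between animals: each ratio below compares 2 libraries, has no replicate check and carries no p-value.

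Total counts were 23797357 in the PBS DC library, 14056428 in the treated DC library, 18649824 in the PBS T cell library and 18463944 in the treated T cell library. Levels within a gene are given as CPM, counts scaled to a common library total. Levels between genes are given as FPKM, which also divides by gene length. Ratios are treated over PBS after TMM scaling, with an exact conditional binomial 95% interval. That interval describes counting error alone, since duplicated PCR reads were not marked by molecular tags. The calls "higher" and "lower" require a 2-fold gap and a log2 interval that leaves out 0. A library at 0 was set to a fixed floor of 3 counts, and such folds are written as "at least". They rest on that floor alone, without the counting error of the other library or any loss of transcripts before sequencing. The 95% interval gives a weaker bound than the floor. For Ccnb1 in DCs it ended at a log2 ratio of -6.27, against -6.58 from the floor. In the DC libraries Itgax had 3982 and 3547 counts and H2-Ab1, an MHC class II gene, 1170633 and 82819, but Flt3 had only 16 and 69 counts and Zbtb46 9 and 57. In the T cell libraries Cd3d had 64986 and 50769 counts and Cd8a 46523 and 47563, against 17 and 252 for Cd4.

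Genes of this kind are known to share a promoter element, the cell cycle genes homology region (CHR), bound by the MuvB complexes, often beside CCAAT boxes bound by NF-Y. RefSeq promoter windows on build GRCm38.p6, from 250 bases before to 50 bases after the start, were found by symbol for 43 of the 53 genes. The CHR was searched as TTTGAA or TTCGAA, the NF-Y box as CCAAT and an E2F-type motif as GCGGGAA, each on both strands. A CHR was present in 33 of 43 windows (76.7%), against 19.4% of all 27025 promoters and 9 of 39 promoters (23.1%) of genes of DNA replication and S phase. In 30 of the 33 windows a CHR began between 40 bases before and 44 bases after the start. The latter is the last position at which a match fits in the window, so matches further on could not be found. The same share over all promoters was not counted. At least 2 CCAAT boxes stood in 48.8% of the windows and in 12.2% of all promoters, and both features together in 44.2% against 2.43%. The E2F-type motif was in 1 of 43 windows (2.33%), against 41% of the S-phase promoters and 4.66% of all. A match of this length is a description of the letters in a window and not a binding site.

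**Figure D1:**
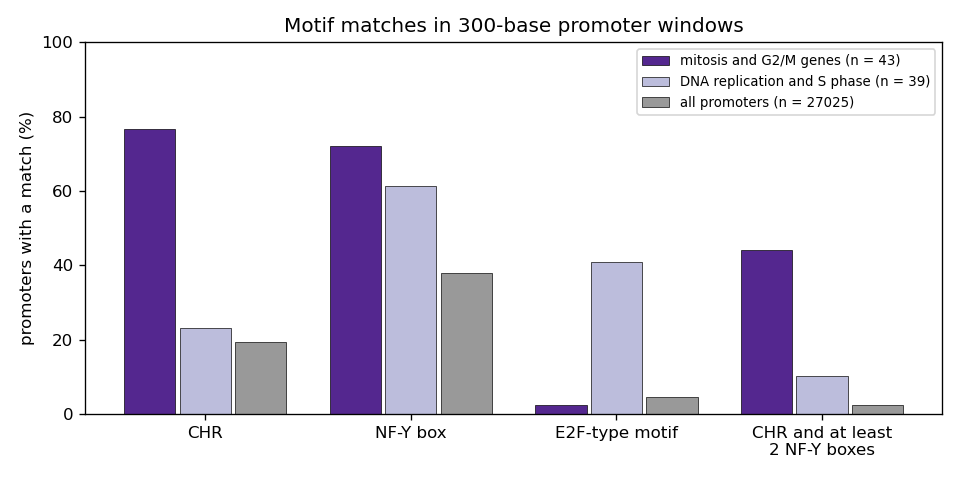
Share of 300-base promoter windows with a motif match (y axis, percent) for the mitosis and G2/M genes, the genes of DNA replication and S phase, and all promoters. The CHR bar of the mitotic genes stands at 76.7%, against 23.1% and 19.4%, while the E2F-type bar is highest for the S-phase genes at 41%.

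The 110 bases before the start are shown for 6 of these promoters. In 5 the CHR lies close to the start, and 1, Ccnb1, has CCAAT boxes and no match to either searched form of the CHR. Other forms were not searched, so a gene without a match may still hold such an element. They were chosen to cover genes that were higher, lower and neither in the comparisons below. Capitals mark the CHR (TTTGAA, or TTCAAA where it lies on the other strand) and the CCAAT box (ATTGG on the other strand).
Cdk1: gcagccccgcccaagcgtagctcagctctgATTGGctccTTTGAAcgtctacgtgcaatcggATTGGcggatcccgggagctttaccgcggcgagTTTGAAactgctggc
Top2a: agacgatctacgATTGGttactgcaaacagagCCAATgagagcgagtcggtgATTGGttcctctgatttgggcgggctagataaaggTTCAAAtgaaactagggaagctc
Kif11: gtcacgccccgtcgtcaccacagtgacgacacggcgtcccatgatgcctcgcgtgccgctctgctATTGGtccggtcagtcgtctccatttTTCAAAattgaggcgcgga
Ube2c: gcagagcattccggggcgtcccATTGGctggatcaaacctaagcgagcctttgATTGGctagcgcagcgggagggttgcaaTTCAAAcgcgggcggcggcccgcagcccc
Cdc20: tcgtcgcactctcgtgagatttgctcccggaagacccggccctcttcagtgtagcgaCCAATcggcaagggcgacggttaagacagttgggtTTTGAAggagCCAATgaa
Ccnb1: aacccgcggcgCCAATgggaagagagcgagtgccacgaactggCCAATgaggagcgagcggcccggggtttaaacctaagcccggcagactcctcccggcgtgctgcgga
These stretches lie on GRCm38.p6 at chr10:69352913-69353022 (minus strand) for Cdk1, chr11:99024190-99024299 (minus) for Top2a, chr19:37376272-37376381 (plus) for Kif11, chr2:164769819-164769928 (plus) for Ube2c, chr4:118437344-118437453 (minus) for Cdc20 and chr13:100786487-100786596 (minus) for Ccnb1. The CHR nearest the start began 15 bases before it in Cdk1 and 29 bases before it in Ube2c, with the other 3 between. The 33 genes with a CHR match were called in both directions. In T cells, where 18.3% of all genes were called higher and 25.4% lower between the treated and PBS libraries, 7 of them were higher and 3 lower, against 3 and 1 of the 10 without a match. In DCs, where 30.2% of all genes were higher and 41.8% lower, 6 were higher and 15 lower of 28 with a match that reached 20 counts, against 2 and 5 of 10.

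In levels, the T cell libraries carried more of these transcripts than the DC libraries. Summed, the 53 genes made up 0.446% of the PBS DC counts, 0.171% of the treated DC counts, 0.673% of the PBS T cell counts and 0.852% of the treated T cell counts. Much of this was Tubb5, a beta-tubulin that non-dividing cells also express, which held 68.3%, 24%, 57.4% and 59% of the counts of the list in that order. Without Tubb5 the summed level was 1412 and 1300 CPM in DCs and 2866 and 3498 CPM in T cells, PBS before treated. Most of the gap between the summed DC levels was thus Tubb5. The DC sums without Tubb5 include Pttg1, at 180.0 and 470.2 CPM, and do not mean that the other genes were alike. Of 47 genes with a DC ratio, 32 had a log2 ratio below 0 and 15 above, against 5704 and 4612 of all 10316 genes. The median gene stood at 1.67 and 0.881 FPKM in DCs and at 3.90 and 6.11 FPKM in T cells. Of the 53 genes, 6 were at 0 in the PBS DC library, 11 in the treated DC library, 0 in the PBS T cell library and 4 in the treated T cell library. In bulk RNA, fewer dividing cells and less transcript per dividing cell cannot be told apart.

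**Figure D2:**
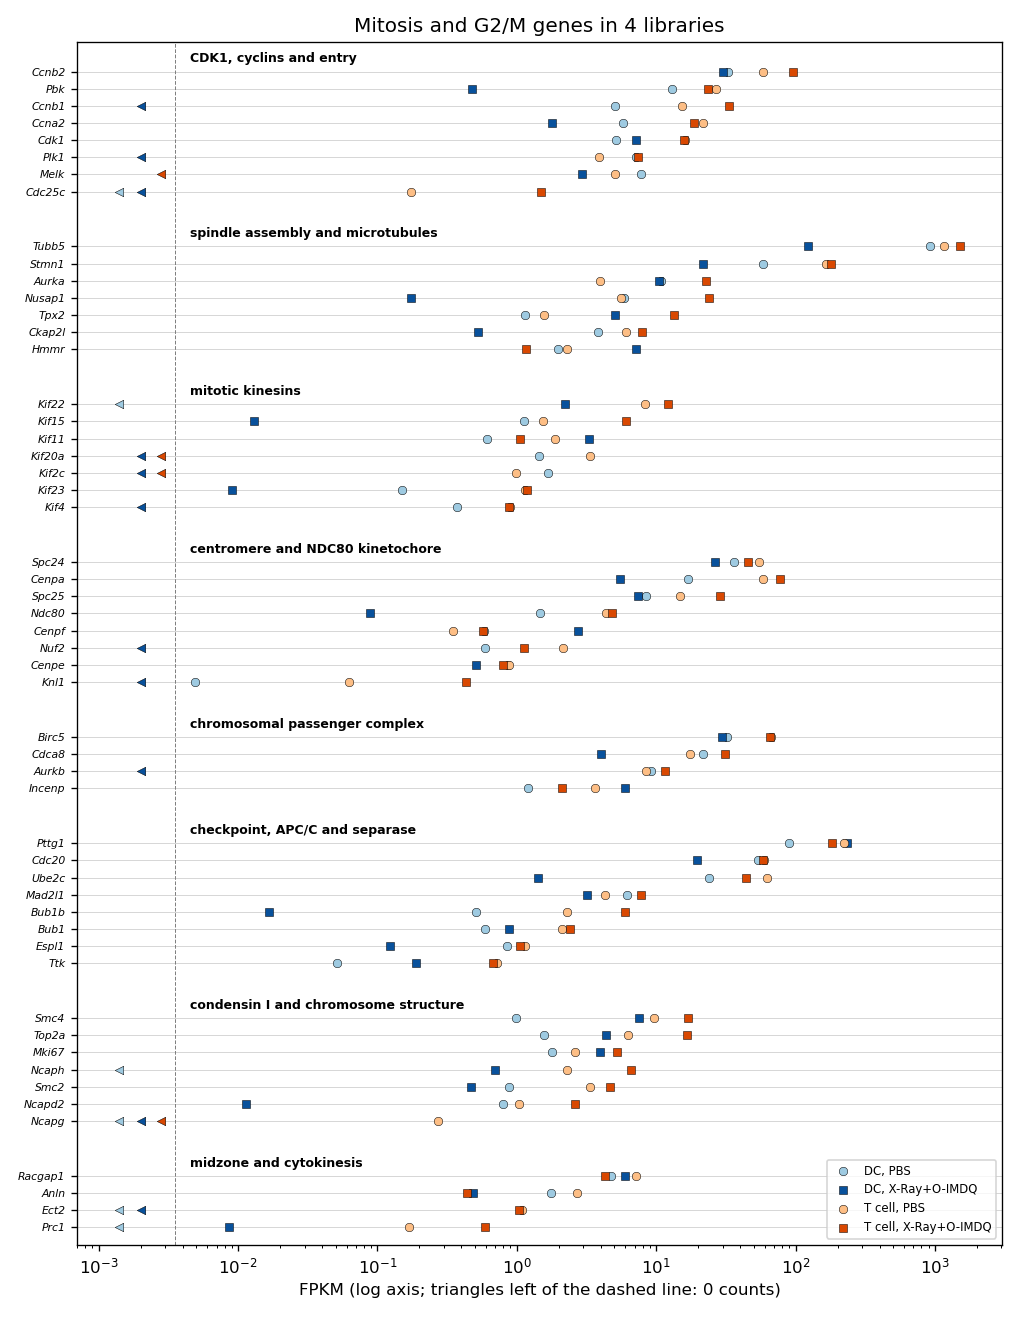
Level of each of the 53 genes in the 4 libraries (x axis, FPKM, log scale), grouped by role and ordered within a group by mean level. Circles are PBS and squares X-Ray+O-IMDQ, blue for DCs and orange for T cells, and triangles left of the dashed line mark 0 counts. Blue triangles and far-left blue squares outnumber orange ones, with 11 genes at 0 in the treated DC library and 4 in the treated T cell library.

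Set side by side on total counts, 27 of 51 genes (52.9%) were called higher in PBS T cells than in PBS DCs, where 43.8% of all genes were. Only Aurka was called lower (1.96%, against 19.1% of all genes). In the treated libraries 39 of 50 (78%) were higher in T cells, against 50.9% of all genes, and 5 (10%) were lower, against 24.4%. Those 5 were Kif11, Hmmr, Incenp, Cenpf and Melk. The order of levels was led by the same genes in most libraries: Tubb5, Pttg1 and Stmn1 headed the PBS DC library and both T cell libraries, and Pttg1, Tubb5 and Ccnb2 the treated DC library. Across the genes with 20 or more counts, FPKM fell with gene length at a Spearman correlation between -0.50 and -0.70 in the 4 libraries (32 to 51 genes). Over all genes it lay between -0.49 and -0.56, and points of 1 library share its depth and length bias.

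Between the DC libraries 25 of 47 genes were called lower (53.2%) and 11 higher (23.4%), while 41.8% of all 10316 genes were lower and 30.2% higher. The median log2 ratio was -1.36, against -0.36 over all genes. The spread was wide in both: 76.6% of the 47 and 72% of all genes were called in some direction. Over the 30 genes with at least 20 counts in both DC libraries, 10 were lower and 9 higher, with a median of -0.09, against 26.2% and 32.9% of all such genes with a median of 0.20. PBS DCs held 40 genes at 100 counts or more, and 5 of these (12.5%) were at 0 after treatment, against 12% of all genes: Ccnb1, Plk1, Aurkb, Kif20a and Kif2c. In reverse, 1 of 25 (4%) did so, Kif22, against 3.29%. These shares of genes at 0 lie near the background. In the treated DC library, zeros in genes well read in PBS were thus common at large (942 of 7856 genes), and what part this has in the zeros of the mitotic genes was not tested.

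Between the T cell libraries 12 of 53 genes were called higher (22.6%) and 5 lower (9.43%), where 18.3% of all 11058 genes were higher and 25.4% lower. The median log2 ratio was 0.18, against -0.07 over all genes, and 36 genes were called in neither direction. The genes lay closer together than genes at large, with 32.1% called in some direction, against 43.7%. Of the 5 lower genes, Melk, Kif20a, Kif2c and Ncapg had 0 counts in the treated library and Anln had 73. PBS T cells held 46 genes at 100 counts or more, and 2 of these (4.35%) were at 0 in the treated library, against 3.97% of all genes.

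**Figure D3:**
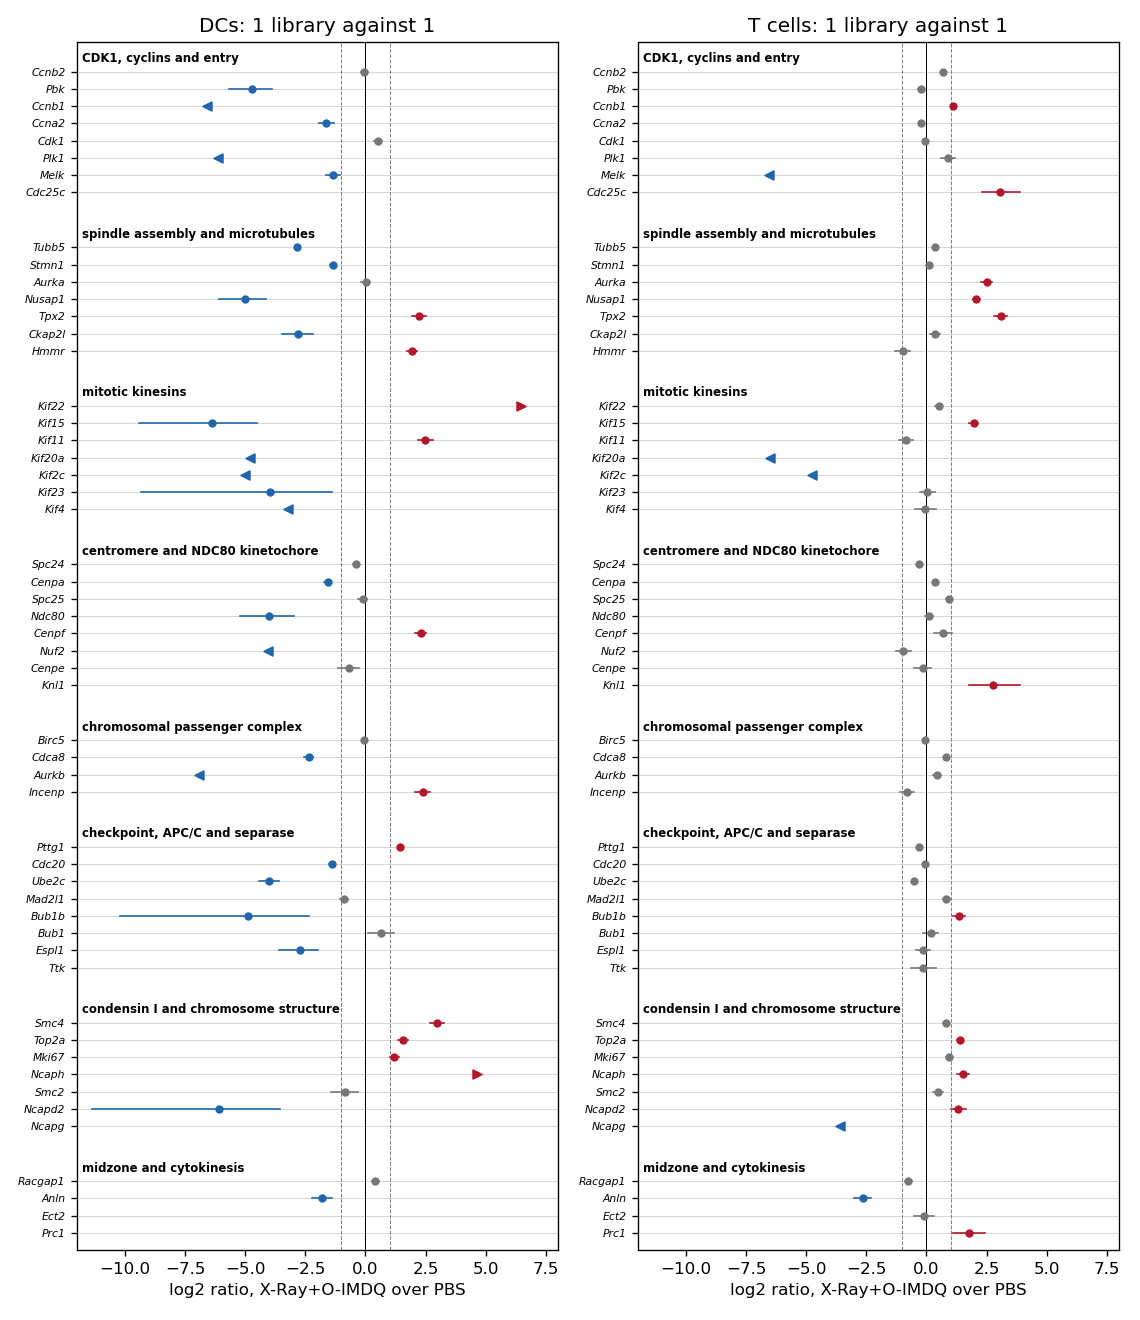
Log2 ratio of X-Ray+O-IMDQ over PBS for each gene in DCs (left) and T cells (right), 1 library against 1. Bars are counting intervals, red is called higher, blue lower and grey neither, dashed lines mark 2-fold, and triangles are genes with 0 counts in a library, drawn at the bound from 3 counts. In DCs 25 points are blue and 11 red over a range that passes 6 log2 units on both sides, and in T cells 36 of 53 are grey.

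The ratios in the 2 cell types showed little relation gene by gene. Over the 47 genes measured in both cell types the Spearman correlation of the DC and T cell log2 ratios was 0.01, and it was -0.02 over all 9388 genes, with no library shared between the comparisons. Called higher in both were Top2a, Tpx2 and Ncaph (6.38%, against 5.41% of all genes). Called lower in both were Kif20a, Kif2c, Melk and Anln (8.51%, against 9.35% of all genes). The DC calls of Top2a and Melk were lost with the length correction, an alternative that removes the trend of the ratio with gene length. The 5 genes lower in DCs and higher in T cells (10.6%, against 6.74% of all genes) were Ccnb1, Nusap1, Kif15, Ncapd2 and Bub1b. None of the 47 was higher in DCs and lower in T cells, where 7.39% of all genes were. Only 5 genes of the list were lower in T cells, so few could have been.

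**Figure D4:**
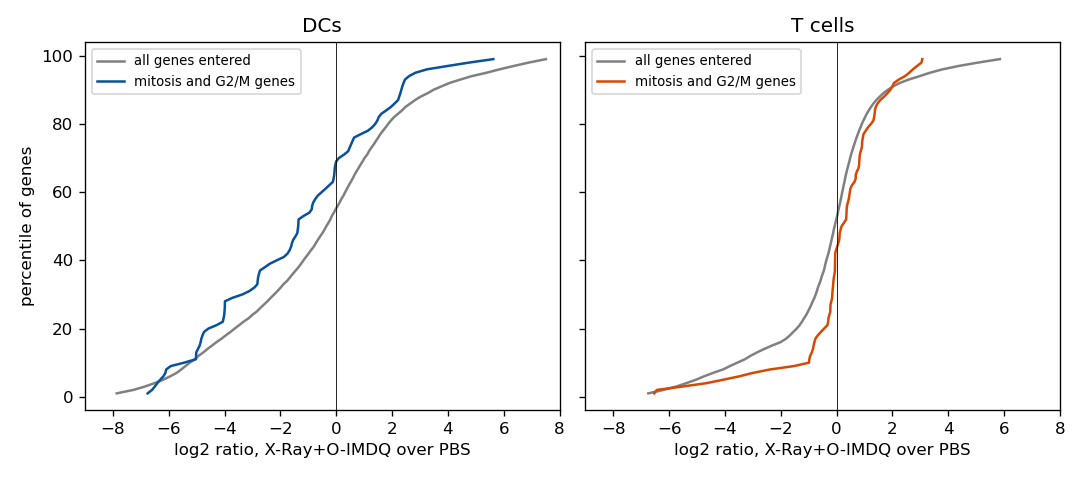
Percentile of genes (y axis) by log2 ratio of X-Ray+O-IMDQ over PBS (x axis) for the mitosis and G2/M genes and for all genes that passed the count minimum. In DCs the coloured curve crosses the median at -1.36, left of -0.36 for all genes, and in T cells at 0.18, right of -0.07, with fewer strongly lower genes.

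CDK1, its cyclins and the kinases of mitotic entry differed among themselves in DCs, where 5 of 7 were lower (71.4%) and none higher. Among all genes 41.8% were lower and 30.2% higher in DCs. Ccnb2, a B-type cyclin (ENSMUSG00000032218, GRCm39, chromosome 9, 70314974 to 70328829) and the most abundant of the group, stood at 49.9 and 46.2 CPM in the PBS and treated DC libraries and at 89 and 146 CPM in T cells. It was called in neither cell type, at 1.61-fold higher in treated T cells. Ccnb1, the other main B-type cyclin, was at 21.2 CPM (505 counts) in PBS DCs and at 0 counts in treated DCs, at least 95.4-fold lower, but went from 63.9 to 140.4 CPM in T cells, 2.16-fold higher. The ratios of these 2 cyclins thus lay close together in T cells and far apart in DCs. Cdk1 itself, the kinase, had 25.5 and 35.2 CPM in DCs and 79.7 and 78.4 CPM in T cells, with ratios of 1.44-fold higher and 1.04-fold lower. Ccna2, the S and G2 cyclin, was 3.10-fold lower in DCs, from 23.7 to 7.33 CPM, and had 87.7 and 76.6 CPM in T cells.

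Plk1, the polo kinase of mitotic entry and spindle poles, had 372 counts in PBS DCs and 0 in treated DCs, at least 70.3-fold lower, and 8.58 and 16.4 CPM in T cells, 1.87-fold apart and not called. Pbk, a mitotic kinase, was 26.2-fold lower in DCs, from 23.3 to 0.854 CPM, but had 48 and 41.9 CPM in T cells. Melk, a kinase expressed in dividing cells, was 2.57-fold lower in DCs (log2 ratio -1.36, or -0.71 and not called with the length correction) and went from 280 counts to 0 in T cells, at least 94.2-fold lower. None of the other 7 genes of the group was called lower in T cells. Cdc25c, the phosphatase that activates CDK1, had 0 counts in both DC libraries and went from 16 to 134 counts in T cells, 8.30-fold higher (log2 interval 2.30 to 3.90).

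Among the genes of spindle assembly and microtubules, 4 of 7 were lower (57.1%) and 2 higher (28.6%) in DCs, against 41.8% and 30.2% of all genes. In T cells 3 were higher (42.9%) and 0 lower, against 18.3% and 25.4% of all genes. Tubb5 (ENSMUSG00000001525, chromosome 17, 36144813 to 36149198) had 3049 and 411 CPM in DCs, 7.12-fold lower, and 3859 and 5025 CPM in T cells, 1.28-fold higher and not called. Stmn1, which destabilises microtubules, had 111 and 42 CPM in DCs and 315 and 344 CPM in T cells. It was called lower in DCs at a log2 ratio of -1.35, but stood at -0.58 and was not called with the length correction, under which Tubb5 stayed called at -2.35. Both have close relatives in the genome, so their counts are uncertain where reads fit several copies.

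Aurka and Tpx2 encode a kinase and the spindle protein that activates it. Aurka had 27.5 and 26.7 CPM in DCs, a ratio of 1.01, and 10.1 and 58.1 CPM in T cells, 5.65-fold higher. Tpx2 was higher in both cell types, from 5.34 to 23.8 CPM in DCs (4.64-fold) and from 7.29 to 62.9 CPM in T cells (8.47-fold). In T cells both partners were called higher, and Tpx2 had the highest log2 ratio of the 53 genes there, at 3.08. Nusap1, which bundles spindle microtubules, was 32.4-fold lower in DCs (571 and 10 counts) and higher in T cells (22.7 and 97.3 CPM, log2 ratio 2.07). Hmmr, a spindle-associated hyaluronan receptor, was 3.82-fold higher in DCs, from 10.6 to 39 CPM, and had 12.4 and 6.34 CPM in T cells, 1.99-fold lower and just inside the threshold. Ckap2l, another spindle protein, was lower in DCs (11.9 and 1.64 CPM, log2 ratio -2.81) and 1.27-fold higher in T cells, which was not called.

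The mitotic kinesins, motors that slide or depolymerise spindle microtubules, were all called in DCs, where 72% of all genes were. Of the 7, 5 were lower (71.4%, against 41.8% of all genes) and 2 higher (28.6%, against 30.2%). Kif22 (ENSMUSG00000030677, chromosome 7, 126626901 to 126641643), which pushes chromosome arms outward, had 0 counts in PBS DCs and 152 in treated DCs, at least 89.4-fold higher. In T cells it had 40.9 and 59.1 CPM, 1.42-fold apart and not called. Kif11, the motor that separates spindle poles, was 5.60-fold higher in DCs, from 4.58 to 24.6 CPM, and had 14.1 and 7.91 CPM in T cells, 1.82-fold lower and not called. Kif15, a motor with an overlapping role, went the other way in both: 294 and 2 counts in DCs, at a log2 ratio of -6.38 (interval -9.43 to -4.51), and 16.9 and 67.3 CPM in T cells, 3.90-fold higher.

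Kif20a, a motor of the midzone, and Kif2c, which removes faulty kinetochore attachments, were at 0 in both treated libraries. Kif20a had 150 counts in PBS DCs and 272 in PBS T cells, which makes it at least 28.3-fold and at least 91.5-fold lower. Kif2c had 173 and 80 counts in the same libraries, at least 32.7-fold and at least 26.9-fold lower. Kif20a overlaps Cdc23 on the opposite strand by 2327 bases, and Cdc23 had 233 and 0 counts in DCs and 1027 and 709 in T cells, so the zero of Kif20a in treated T cells stood beside a neighbour that was read. Kif23 had 28 and 1 counts in DCs, at a log2 ratio of -3.99 (interval -9.34 to -1.39), and 169 and 174 in T cells. Kif4, a chromosome-arm motor, had 49 and 0 counts in DCs, at least 9.26-fold lower, and 92 and 89 in T cells.

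At the centromere and the NDC80 kinetochore, which holds microtubule ends, 3 of 7 genes were lower (42.9%) and 1 higher (14.3%) in DCs. The lower share lay near the 41.8% of all genes, and 30.2% of all genes were higher. In T cells 1 of 8 was higher (12.5%, against 18.3% of all genes). Spc24 (ENSMUSG00000074476, chromosome 9, 21666738 to 21671599) had 92.7 and 67.3 CPM in DCs and 140 and 117 CPM in T cells and was called in neither. Its partner Spc25 had 26.8 and 23.7 CPM in DCs and 47.3 and 91.2 CPM in T cells, 1.89-fold apart there. The other arm of the complex differed: Ndc80 had 225 and 8 counts in DCs, 15.9-fold lower, and Nuf2 had 89 and 0, at least 16.8-fold lower. In T cells Ndc80 had 28.2 and 31 CPM and Nuf2 13.7 and 7.09 CPM, neither called. Cenpa, the centromeric histone H3 variant, was 2.97-fold lower in DCs, from 99.8 to 32.2 CPM, and had 344 and 451 CPM in T cells. Cenpf, a kinetochore and nuclear matrix protein, was 4.93-fold higher in DCs, from 8.95 to 42.3 CPM, and had 5.36 and 8.77 CPM in T cells. Cenpe, a kinetochore kinesin, had 178 and 62 counts in DCs and 141 and 127 in T cells, called in neither. With the length correction it was called lower in DCs, at a log2 ratio of -1.25. Knl1, the scaffold for checkpoint proteins, had 1 and 0 counts in DCs and 10 and 68 in T cells, 6.74-fold higher.

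The chromosomal passenger complex, which corrects attachments and later guides cytokinesis, had 1 gene higher, 2 lower and 1 called in neither direction in DCs, while none of its 4 genes was called in T cells. Among all genes 30.2% were higher and 41.8% lower in DCs, and 43.7% were called in some direction in T cells. Birc5 (ENSMUSG00000017716, chromosome 11, 117740077 to 117746569), which encodes survivin, had 110.3 and 101 CPM in DCs and 227 and 221 CPM in T cells. Its ratios were 1.05-fold and 1.04-fold lower, among the closest to 1 of the list. Cdca8, which encodes borealin, was 5.13-fold lower in DCs, from 111 to 20.8 CPM, and 1.76-fold higher in T cells, not called. Aurkb, the kinase of the complex, had 638 counts in PBS DCs and 0 in treated DCs, at least 121-fold lower, while T cells had 24.9 and 34.1 CPM. Incenp, the scaffold, was 5.19-fold higher in DCs, from 5.21 to 26 CPM, and had 15.7 and 9.10 CPM in T cells, 1.76-fold lower and not called. The 4 subunits of this complex work together in the cell, yet in DCs their log2 ratios ran from -6.91 to 2.38.

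**Figure D5:**
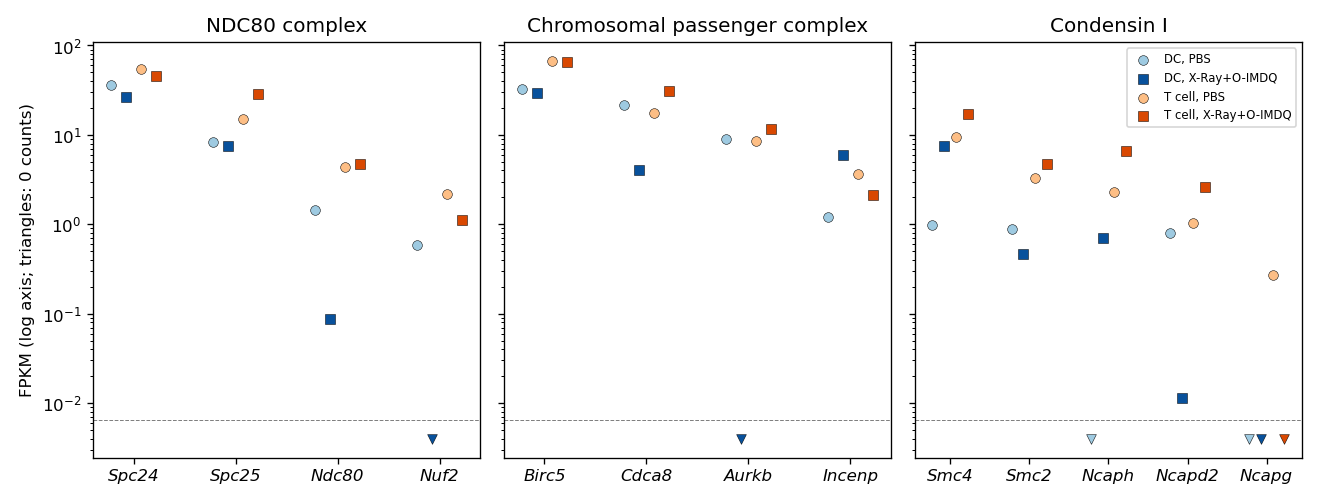
Level (y axis, FPKM, log scale) of the subunits of the NDC80 complex, the chromosomal passenger complex and condensin I in the 4 libraries, with triangles for 0 counts. The NDC80 subunits keep the order Spc24, Spc25, Ndc80, Nuf2 in each library, and the treated DC squares drop furthest for Ndc80 and Ncapd2. Nuf2 and Aurkb are triangles in treated DCs, at 0 counts, so the depth of their drop cannot be read.

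Subunit levels within a complex were far from equal in each library. The NDC80 complex ran from 36 FPKM for Spc24 to 0.59 FPKM for Nuf2 in PBS DCs, 61-fold, and from 54.4 to 2.16 FPKM in PBS T cells, 25.2-fold. The order Spc24, Spc25, Ndc80, Nuf2 was kept in the 4 libraries. The passenger complex kept the order Birc5, Cdca8, Aurkb, Incenp in 3 libraries and became Birc5, Incenp, Cdca8, Aurkb in treated DCs. In the NDC80 complex the 2 leading genes, at 2573 and 3188 bases, are shorter than the other 2, at 6493 and 6341 bases.

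Genes of the spindle checkpoint, the APC/C and separase showed 4 lower (57.1%) and 1 higher (14.3%) of 7 in DCs, against 41.8% and 30.2% of all genes. In T cells 1 was higher (12.5%) and 0 lower of 8, against 18.3% and 25.4% of all genes. Pttg1 (ENSMUSG00000020415, chromosome 11, 43311077 to 43317078), which encodes securin, the inhibitor of separase, had 180.0 and 470.2 CPM in DCs, 2.72-fold higher. In T cells it had 444 and 365 CPM and was not called. Its target Espl1, which encodes separase, was 6.69-fold lower in DCs, from 177 to 15 counts, and had 188 and 171 counts in T cells. Cdc20, the mitotic activator of the APC/C, was 2.64-fold lower in DCs, from 100.1 to 36.4 CPM, and had 111 and 109 CPM in T cells. Its log2 ratio in DCs was -1.40, and -0.64 and not called with the length correction. Ube2c, the ubiquitin-conjugating enzyme that starts chains for the APC/C, was 16.2-fold lower in DCs, from 62.4 to 3.70 CPM, and had 162 and 114 CPM in T cells.

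Of the checkpoint proteins, which hold the APC/C inactive until attachment, Bub1b had 52 and 1 counts in DCs, at a log2 ratio of -4.88 (interval -10.21 to -2.34). In T cells it was 2.57-fold higher, from 9.81 to 25.7 CPM. Mad2l1 had 51.6 and 26.7 CPM in DCs and 35.8 and 64.9 CPM in T cells, 1.85-fold lower and 1.78-fold higher, neither called. With the length correction its DC log2 ratio was -1.40 and called lower. Bub1 had 61 and 54 counts in DCs and 171 and 195 in T cells. Ttk, the kinase at the head of the checkpoint, had 6 and 13 counts in DCs, under the minimum, and 66 and 61 in T cells. The T cell libraries differed little for 7 of the 8 genes of this group, whose ratios stayed within 2-fold.

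Condensin I and chromosome structure was the group with more higher than lower genes in DCs, 4 (66.7%) against 1 (16.7%) of 6. Among all genes 30.2% were higher and 41.8% lower in DCs. The group had 3 higher (42.9%) and 1 lower (14.3%) of 7 in T cells, against 18.3% and 25.4% of all genes. With the length correction, which ended the DC calls of Top2a and Mki67, 2 were higher and 1 lower in DCs. Smc4, a condensin ATPase (ENSMUSG00000034349, chromosome 3, 68912071 to 68941956), was 7.92-fold higher in DCs, from 5.17 to 39.3 CPM, and had 49.9 and 88.6 CPM in T cells, 1.74-fold higher and not called. Its partner Smc2 had 4.83 and 2.56 CPM in DCs and 18.2 and 25.7 CPM in T cells and was called in neither. Ncaph, the kleisin of condensin I, had 0 and 42 counts in DCs, at least 24.7-fold higher, and 183 and 523 in T cells, 2.83-fold higher. Ncapd2, a HEAT-repeat subunit, had 119 and 1 counts in DCs, at a log2 ratio of -6.08 (interval -11.39 to -3.57), and 121 and 303 in T cells, 2.48-fold higher. Ncapg, the other HEAT-repeat subunit, had 0 counts in both DC libraries and 36 and 0 in T cells, at least 12.1-fold lower.

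Top2a, the topoisomerase that untangles sister chromatids, was higher in both cell types, from 14.1 to 39.6 CPM in DCs (2.93-fold) and from 56.8 to 151 CPM in T cells (2.60-fold). Mki67, the chromosome surfactant protein Ki-67 and the usual marker of cycling cells, was 2.30-fold higher in DCs, from 18 to 39.7 CPM. In T cells it had 26.5 and 52.4 CPM, 1.94-fold higher (log2 interval 0.80 to 1.12), just short of the threshold. In DCs neither call held with the length correction, under which the log2 ratio was 0.93 for Top2a and 0.42 for Mki67.

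At the midzone and in cytokinesis, Racgap1 (ENSMUSG00000023015, chromosome 15, 99518377 to 99549537), a subunit of centralspindlin with Kif23, had 33.2 and 42.5 CPM in DCs and 50.6 and 30.6 CPM in T cells and was called in neither. Anln, which links actin, myosin and septins in the ring, was lower in both cell types, from 16 to 4.41 CPM in DCs (3.47-fold) and from 24.5 to 3.95 CPM in T cells (6.32-fold). Ect2, the exchange factor that activates RhoA at the ring, had 0 counts in both DC libraries and 109 and 102 in T cells. Prc1, which crosslinks midzone microtubules, had 0 and 1 counts in DCs and 26 and 89 in T cells, 3.39-fold higher. Prc1 lies whole within Rccd1 on the other strand in the listed coordinates (21810 bases), so reads of the pair may be mixed where strand was not used. The same limit holds for Ube2c, Cdc20, Ncapg, Nusap1, Ccna2, Cdca8, Kif4 and Cdc25c, which also overlap a gene on the other strand. Ccnb1, Ccnb2, Stmn1, Kif22 and Kif4 have listed near copies that could share their reads.

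Other genes of the pathway, on a list of 62 further G2/M genes, gave 27 lower and 8 higher of 47 in DCs, with a median of -2.35, and 15 lower and 12 higher of 61 in T cells, with a median of 0.05. These were 57.4% and 17% in DCs, against 41.8% and 30.2% of all genes. The T cell shares, 24.6% and 19.7%, lay near the 25.4% and 18.3% of all genes. In DCs Psrc1, a spindle protein, had 0 and 423 counts and Fam83d 661 and 0. In T cells Fam83d had 30 and 609 counts, Cdca2 21 and 466 and Trip13 36 and 488, while Esco2 had 139 and 1. Of 15 APC/C genes, 9 were lower (60%) and 5 higher (33.3%) in DCs and 3 were lower (20%) and 1 higher (6.67%) in T cells. Anapc13, a small subunit, had 994 and 10044 counts in DCs and Cdc16, a core subunit, 1445 and 0. Fzr1, the activator that keeps the APC/C on after mitosis, had 1503 and 182 counts in T cells, 8.33-fold lower.

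Among 23 genes of the transcription factors that drive or repress G2/M genes, 12 of 20 were lower (60%) and 3 higher (15%) in DCs. In T cells 5 of 23 were lower (21.7%) and 3 higher (13%). Here as below, 41.8% of all genes were lower and 30.2% higher in DCs, and 25.4% and 18.3% in T cells. Mybl2, the B-Myb partner of MuvB, was 48.6-fold higher in T cells, from 9 to 441 counts, while Foxm1, its successor on the same promoters, had 413 and 192 counts, 2.17-fold lower. Rb1, the repressor of E2F, had 205 and 0 counts in T cells. The genes of DNA replication and S phase gave the same counts as the mitotic genes in DCs, 25 lower and 11 higher of 47, with a median of -1.54. In T cells 11 of 48 replication genes were higher and 5 lower, at a median of 0.30, close to the counts of the mitotic genes.

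Markers of other cell types were also counted, and their part in the results was not tested. Of 10 listed T cell markers, 7 had counts in PBS DCs, with Cd3e, Cd247 and Cd4 at 0, and 4 in treated DCs. Their sum was 114 and 95.7 CPM in the DC libraries, against 14784 and 16113 CPM in the T cell libraries. Of 12 macrophage markers 12 were present in both DC libraries, at a sum of 43214 and 6012 CPM. This sum was lower in the treated library, but by gene 6 of the 12 were called lower and 6 in neither direction. Their median log2 ratio was -0.78. The sum of the mitotic genes was lower in the treated library too, but without Tubb5 it stood at 1412 and 1300 CPM. Pttg1 made up 180.0 and 470.2 CPM of that. The sum of 12 conventional DC markers was lower there as well, at 82480 and 14180 CPM, with Batf3 at 0. Of 11 epithelial markers of the tumour cells, 3 had counts in PBS DCs and 2 in treated DCs, with Krt8, Krt18 and Krt19 at 0 in both. In the PBS and treated T cell libraries fibroblast markers summed to 2291 and 1627 CPM, conventional DC markers to 1374 and 1735 CPM and macrophage markers to 896 and 856 CPM. There NK cell markers summed to 464 and 391 CPM, epithelial markers to 13.3 and 4.44 CPM, B cell markers to 0.912 and 7.47 CPM and neutrophil markers to 2.09 and 1.73 CPM. The fibroblast list, which includes Thy1, was uneven in the T cell libraries. Its median gene stood at 1.79 and 0.322 FPKM and its highest at 712 and 494 FPKM, with Fap and Pdgfra at 0 in both. Its sum there is thus no measure of fibroblast content. Fibroblast, B cell, NK cell and neutrophil markers summed to 129, 41.4, 36.8 and 22.1 CPM in PBS DCs and to 160.4, 12.6, 60.4 and 91.7 CPM in treated DCs.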

How the data were processed

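Whole-number read counts per gene and FPKM were deposited by the authors, 1 table per cell type, per the file headers. Deposited FPKM could be recomputed from count, listed gene length and column total (largest relative difference 2.04e-07). Build GRCm39, RSEM 1.2.12, HISAT2 2.0.4, R 3.3.1 and DESeq2 1.24.0 appear in the submitters' processing notes, without their roles. Use of strand in counting is not given. The sample descriptions' read file names tied columns to samples, whose numbers differ from the replicate numbers in 3 of the 4 titles. A further PBS library in each table matched no sample, and its columns, 4 in all, were not used.

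Counts were scaled with TMM (edgeR 4.0.16, R 4.3.3) on each whole table. A gene entered with a symbol and at least 20 counts in either library. Alternatives were total counts, DESeq2 1.42.0 size factors, upper-quartile scaling, other count minimums and thresholds, a lowess correction for gene length (fraction 0.3), log2(CPM + 1) and the mean. The method was run on simulated counts that carry counting error alone, as the interval assumes. That run checks the code and says nothing about spread between animals or libraries. The most abundant member of each of 8 role groups and each called member with at least 100 counts were to be named in full, 39 genes, and the other 14 were added so that every member is accounted for. Genes of other lists were named as the 3 furthest from 0 by interval bound in each direction, or fewer. Members and lists were chosen with earlier results of these data known. Marker genes and those in the opening label check were named after their values were seen.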

Additional observations from a re-analysis of the deposited data

Results flagged for a closer look

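In 5 genes the treated library was called lower than PBS in DCs and higher in T cells, and each cell type has 1 library per group, so the difference between cell types was not tested. The log2 ratio in T cells minus that in DCs was 8.34 for Kif15, 7.68 for Ccnb1, 7.39 for Ncapd2, 7.09 for Nusap1 and 6.24 for Bub1b. For Ccnb1 the DC ratio stands on 0 counts in the treated library and is a bound. For Kif15, Ncapd2, Bub1b and Nusap1 it stands on 2, 1, 1 and 10 counts there. The DC log2 interval of Ncapd2 ran from -11.39 to -3.57 and that of Bub1b from -10.21 to -2.34. The size and order of these differences are thus loose. These 5 are 10.6% of the 47 genes measured in both cell types, where 6.74% of all genes did the same. The reverse pattern was seen in 0 of 47, against 7.39% of all genes. Few genes could have shown it, since only 5 of the list were lower in T cells. Of these, 4 were also lower in DCs, and Ncapg had no DC ratio.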

How the results depend on the processing

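The median log2 ratio stayed below 0 in DCs and above 0 in T cells under each alternative run. In DCs it was -1.42 with total counts, -1.39 with DESeq2 size factors, -1.31 with upper-quartile scaling, -1.25 with the length correction, -1.27 with log2(CPM + 1), -1.12 with a minimum of 1 count and -0.093 with 20 counts in both libraries, and the mean was -1.44. In T cells it was 0.20 with total counts, 0.08 with upper-quartile scaling, 0.19 with the length correction, 0.16 with log2(CPM + 1) and 0.34 both with 100 counts in either and with 20 counts in both libraries, and the mean was 0.046. Requiring 20 counts in both libraries, which leaves out genes lost from a library, left 10 of 30 lower in DCs, down from 25. In T cells it left 1 of 47 lower, down from 5. Of all such genes 26.2% were lower in DCs and 15.4% in T cells. A minimum of 100 counts left 3 of 47 lower in T cells, against 20.4% of all genes. At 1.5-fold 20 of 53 were higher and 10 lower in T cells, against 27.1% and 33.7% of all genes. At 4-fold 7 of 47 were higher in DCs, against 18.6% of all genes, and 5 of 53 in T cells, against 9.07%. Of the 36 called genes in DCs and 17 in T cells, all kept their call with total counts, DESeq2 size factors and upper-quartile scaling, which added Hmmr and Nuf2 as lower in T cells. The length correction kept 31 calls in DCs, lost 5 (Top2a, Mki67, Stmn1, Cdc20 and Melk) and gained Mad2l1 and Cenpe as lower. The 6 genes under 20 counts in both DC libraries gave no ratio there.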

Other observations

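Cohesin genes, whose ring holds sister chromatids together, had 3 higher and 3 lower of 10 in DCs and 1 higher and 4 lower in T cells. For this and the next lists, 30.2% of all genes were higher and 41.8% lower in DCs, and 18.3% and 25.4% in T cells. Rad21, the subunit that separase cleaves, had 101 and 900 counts in DCs and 599 and 262 in T cells, PBS before treated. Of the CDK inhibitors and antiproliferative genes, 4 of 13 were higher and 6 lower in DCs, and 6 of 14 were higher and 3 lower in T cells. Wee1, the kinase that holds CDK1 inactive, was 7.95-fold higher in T cells, from 50 to 401 counts, beside the higher Cdc25c that opposes it. Pkmyt1, the related kinase, had 489 and 227 counts. Of the G1 cyclins and CDKs 4 of 8 were lower and 1 higher in DCs, with Ccnd3 at 1651 and 51 counts and Ccnd2 at 1519 and 2699. In T cells 0 were higher and 1 was lower.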
